A study of Mus musculus with 58 samples.

Results

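Adipose stem cells of the ASC2 population were compared between ovariectomized females, which lack gonads, and control males, which have testes. The comparison comprised 16 of the 58 libraries of the hormone experiment, 8 of ovariectomized female ASC2 and 8 of control male ASC2, each assigned by its name in the sample labels. All mice were C57BL6/J and fasted for 4 h before they were terminated at 10 weeks of age. The ovariectomized females had lost their ovaries at 4 weeks, while the control males kept their testes. Cells from inguinal white adipose tissue (iWAT), the subcutaneous depot of the groin, were sorted by flow cytometry for CD34 on the surface and for the absence of the leukocyte antigen CD45 and the endothelial antigen CD31. Those with DPP4 were collected as ASC2 and those without DPP4 as ASC1. Where named, 8 libraries each of castrated male and control female ASC2 were also used, the former from males castrated at 4 weeks. Control male and ovariectomized female ASC1, with 7 and 3 libraries, were used likewise. RNA of the sorted cells was measured in bulk by Smart-seq3, a full-length cDNA protocol, and reads with and without molecular identifiers were counted together. Ovariectomized female and control male ASC2 differed in sex, in ovariectomy, in testicular hormones and in plate rows at the same time. These cannot be told apart in this comparison alone. The methods state 8 mice per group, but the labels tie no library to a mouse, so the p-values measure the spread between these libraries.

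Testosterone from the testis alters the transcription of its target genes, and in adipose tissue it shapes fat distribution and the differentiation of progenitors. Ovariectomy removes the main source of estrogens and progesterone. ASC2 cells lie in the fibrous septa between adipocyte lobules, make collagen and proteoglycans, and are regarded as an early progenitor of ASC1 cells, which stand closer to the adipocyte.

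Upstream windows are given here for 4 genes of the comparison. C7 and Sult1e1 are the marker genes of the comparison, Tdo2 fell with them to near 0, and Slc16a3 led the glycolysis genes in the other direction. Each window holds the 250 bases before the first listed transcript start, on the strand of the gene, as given by RefSeq for GRCm38.p6, an older build than the GRCm39 of the deposited counts. The regions are chr15:5063774-5064023 on the minus strand for C7, chr5:87591612-87591861 on the minus strand for Sult1e1, chr3:81975729-81975978 on the minus strand for Tdo2 and chr11:120948817-120949066 on the plus strand for Slc16a3. Capitals mark the core of the hypoxia response element, ACGTG, in the window of Slc16a3.
C7: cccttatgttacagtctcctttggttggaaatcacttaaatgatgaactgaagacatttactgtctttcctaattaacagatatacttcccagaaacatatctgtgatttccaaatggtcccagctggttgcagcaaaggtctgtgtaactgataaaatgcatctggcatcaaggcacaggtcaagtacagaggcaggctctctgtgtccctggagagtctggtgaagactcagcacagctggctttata
Sult1e1: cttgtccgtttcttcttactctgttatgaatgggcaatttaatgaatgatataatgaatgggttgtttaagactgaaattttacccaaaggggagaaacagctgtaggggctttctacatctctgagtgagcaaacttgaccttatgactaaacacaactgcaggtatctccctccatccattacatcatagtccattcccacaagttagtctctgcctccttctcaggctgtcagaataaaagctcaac
Tdo2: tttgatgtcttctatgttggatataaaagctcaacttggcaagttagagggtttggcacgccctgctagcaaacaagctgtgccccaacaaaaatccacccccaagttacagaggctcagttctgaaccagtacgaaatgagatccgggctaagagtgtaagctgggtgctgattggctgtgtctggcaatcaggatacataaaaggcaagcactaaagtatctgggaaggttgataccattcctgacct
Slc16a3: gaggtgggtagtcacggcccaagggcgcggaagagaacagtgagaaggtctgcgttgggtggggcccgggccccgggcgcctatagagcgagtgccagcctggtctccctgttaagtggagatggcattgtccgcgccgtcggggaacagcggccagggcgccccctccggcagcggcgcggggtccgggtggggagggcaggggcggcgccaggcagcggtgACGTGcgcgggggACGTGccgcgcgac
The letters AGAACA, an androgen response half-site, were searched on both strands and occurred in 5284 of 32851 windows of this length (16.1%). They occurred in none of the windows of C7, Sult1e1 and Tdo2 and once in that of Slc16a3. The hypoxia core was searched as ACGTG or GCGTG on both strands and occurred in 38.6% of all windows, with 2 matches in Slc16a3, 27 and 14 bases before the start, 1 match of GCGTG on the other strand in Tdo2 and none in C7 and Sult1e1. A match is a string of letters and not a binding site, and no match says only that these letters are not in this window.

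Total counts per library were 461907 to 1421547 in control males and 106566 to 1118901 in ovariectomized females, and 11375 to 15035 against 9336 to 15032 genes were detected. Several libraries stood apart from their labels or from each other. Control male replicates 5 to 8 held 27 to 71 reads of Xist, the RNA that silences an X chromosome in females, beside 8 to 32 reads of 4 Y-linked genes, whereas replicates 1 to 4 held no Xist and 57 to 133 Y-linked reads. Most control female ASC2 libraries held Y-linked reads against their label, up to 47, which the study took as weak contamination by male RNA. The ovariectomized libraries held no Y-linked read. Among these, replicates 1 to 4 had 30.4 to 50.9 CPM (counts scaled by TMM library size) of Tcf21, a transcription factor of visceral mesenchyme. The same replicates had 11.5 to 28.8 CPM of Wt1. Replicates 5 to 8 and all 8 control male libraries had no read of either gene. Ovariectomized replicates 5 to 8 had 160 to 428 CPM of the epithelial keratin Krt18 and 68.7 to 214 CPM of Krt14. Control males had 0 to 42.4 and 0 to 9.50 CPM. Other groups also held Tcf21, at 0 to 30.5 CPM in control female ASC2 and 0 to 21.7 CPM in castrated male ASC2. Control male ASC1 had 0 to 17.8 CPM of Tcf21. The fibroblast markers Pdgfra, Col1a1, Dcn, Lum, Cd34 and Ly6a summed to 9294 to 13692 CPM in control male and 5345 to 10346 CPM in ovariectomized ASC2. Summed ASC2 markers reached 2774 to 6701 and 1110 to 3865 CPM. Control replicate 4 had the lowest share of counts from ribosomal protein genes, 1.92%, against 4.16% to 11.1% in the others and 7.62% to 11.3% in the ovariectomized libraries.

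**Figure D1:**
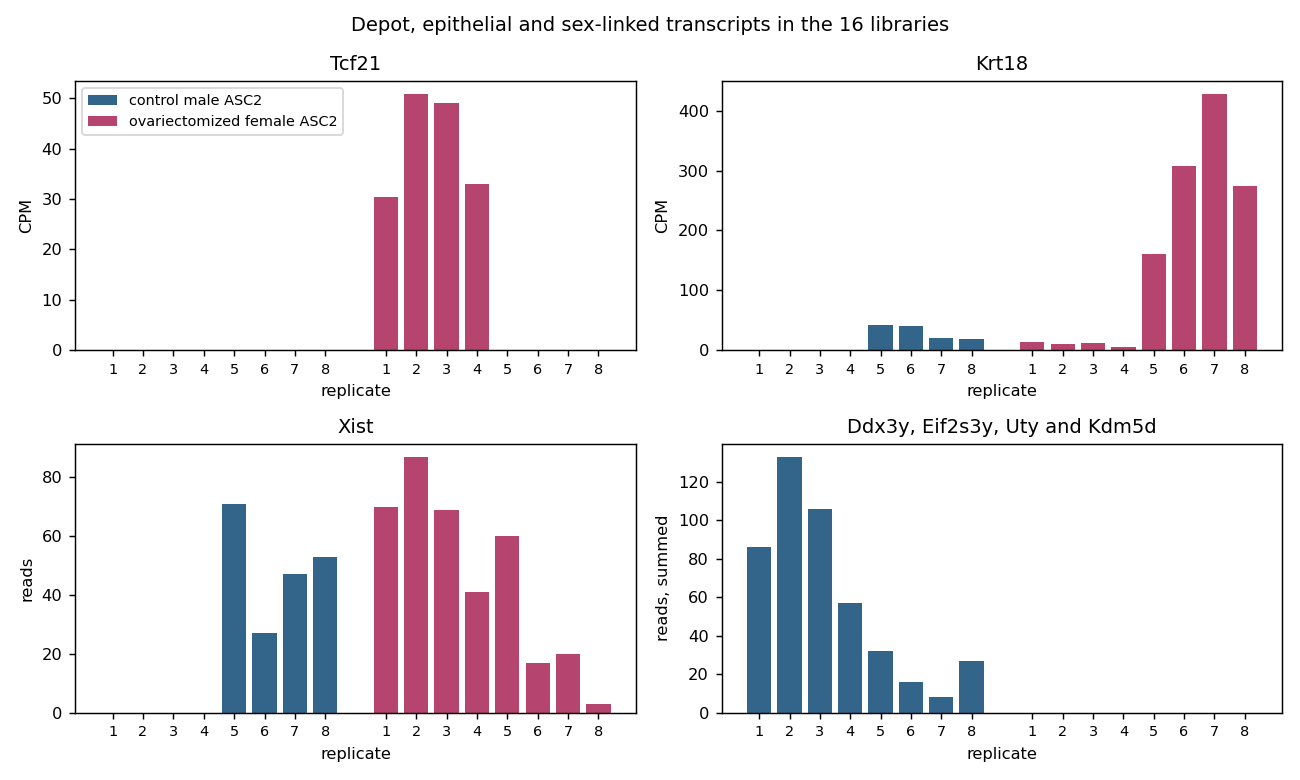
Tcf21 and Krt18 in CPM, and Xist and the sum of 4 Y-linked genes in reads, are shown as bars for each of the 16 libraries by replicate, blue for control male and pink for ovariectomized female ASC2. Tcf21 is at 0 in all 8 control libraries and at 30.4 to 50.9 CPM in ovariectomized replicates 1 to 4, Krt18 is highest in ovariectomized replicates 5 to 8, and control replicates 5 to 8 hold both Xist and Y-linked reads.

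The main comparison was therefore also computed on 5 smaller sets chosen after seeing the data. These left out the 4 control libraries with both Xist and Y-linked reads, the 4 ovariectomized libraries with Tcf21, or the 4 with Krt18. The remaining sets left out the first together with either of the others. Tests against other groups, between ASC2 and ASC1 and by permutation are given for fewer or other sets. A gene is said below to hold when it passed the threshold in the same direction in all 5 sets. What these libraries have in common was not tested further, and in bulk RNA fewer cells of a type and less RNA per cell cannot be told apart.

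Of 11960 autosomal genes tested, 2193 (18.3%) had an adjusted p below 0.05 in the quasi-likelihood test of edgeR. Ovariectomized female ASC2 had higher levels of 1058 genes (8.85%) and lower levels of 1135 (9.49%), and at over 2-fold these were 627 (5.24%) and 681 (5.69%). The median log2 fold change of all genes tested was 0.01, where negative values are lower in ovariectomized females. The CPM ranges of the groups did not overlap for 247 genes (2.07%), 94 of them higher (0.786%) and 153 lower (1.28%). Without the 4 Tcf21 libraries the calls fell to 397 and 544, in a set whose 4 ovariectomized libraries had 106566 to 875300 counts. Of these calls 733 were among the 2193, and 95 of the 2193 genes had the opposite sign there. Without the 4 mixed control libraries there were 1185 and 1230, and without the 4 Krt18 libraries 1139 and 1037. In all, 428 of the 2193 called genes held, 149 higher and 279 lower. Counts in the gene lists below are to be read beside these shares over all genes.

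C7, a component of the complement membrane attack complex, had the largest fall among genes with at least 20 CPM whose groups did not overlap. Its level was 209, 332 and 1664 CPM (lowest, median, highest) in the control male libraries and 0, 0 and 3.85 CPM in the ovariectomized female ones. The 8 control libraries lay above every ovariectomized library, and the whole ovariectomized group gave 5 reads against 3033. The pooled ratio was 496, with a 95% interval of 212 to 1527 that covers counting error only, and the fitted log2 fold change was -8.89 ± 0.64 (SE, adjusted p = 3.02e-16). The control mean was 533 ± 480 CPM (SD, n = 8) with replicate 4 far above the rest, and with any single library left out the fold change stayed between -9.69 and -8.38. Mean C7 was 2.13 CPM in castrated male ASC2 and 6.003 CPM in control female ASC2, and the differences of ovariectomized female ASC2 from these groups, -0.97 and -2.44 on the log2 scale, did not pass (adjusted p = 0.75 and 0.163).

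Sult1e1, the sulfotransferase that inactivates estrogens, had 34.6, 87.6 and 154 CPM in control male ASC2 and no read in any of the 8 ovariectomized libraries. With 543 reads against 0 and a floor of 3 reads over the group, its level was at least 148-fold lower (log2 fold change -8.86, adjusted p = 6.94e-09). No read of Sult1e1 was counted in castrated male ASC2 either, nor in control female ASC2, most of whose libraries held Y-linked reads. Tdo2, a dioxygenase that opens the degradation of tryptophan, had 12.6, 25.5 and 39.6 CPM in control males and 1 read in the ovariectomized group. The pooled ratio was 141, with a counting interval of 25.2 to 5552, and the adjusted p was 1.61e-08. All 3 genes held.

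**Figure D2:**
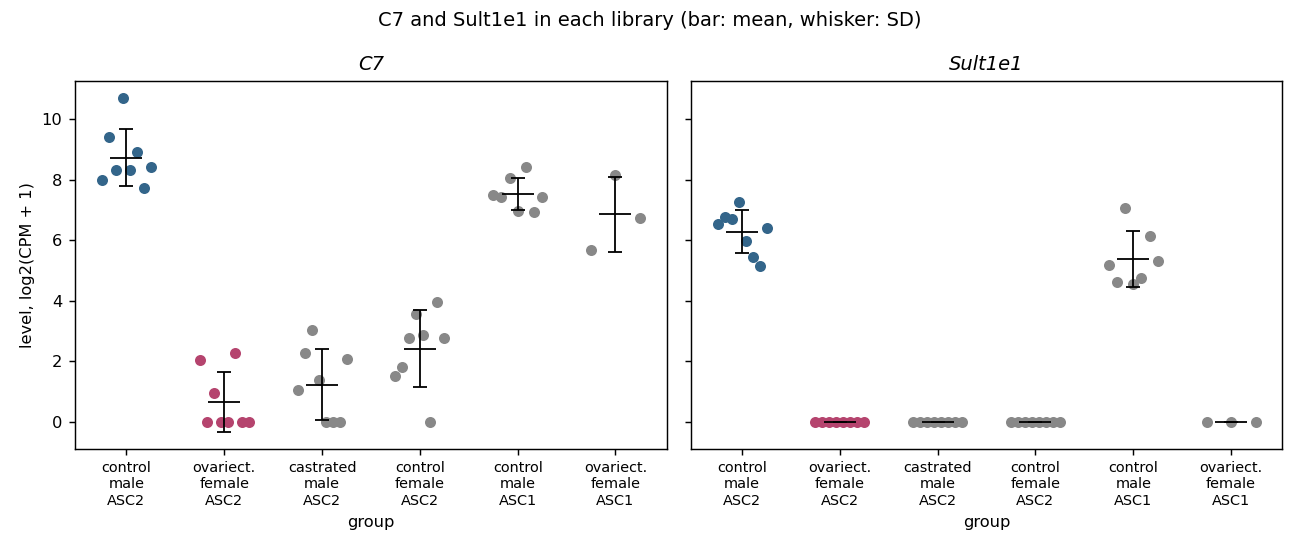
Each point is a library, plotted as log2(CPM + 1) for C7 and Sult1e1 in 4 ASC2 and 2 ASC1 groups, with the bar at the group mean and the whisker showing the SD. Control male ASC2 lies above the other 3 ASC2 groups for both genes, whereas the 3 ovariectomized ASC1 libraries keep 50.3 to 285 CPM of C7 and have no read of Sult1e1.

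The 15 genes with the largest falls among those with at least 20 CPM and groups that did not overlap had log2 fold changes of -3.10 to -8.89, and 13 of them held. Since they were picked for not overlapping, their separation is no further result. Il1r2, a decoy receptor for the cytokine IL-1, had 461, 684 and 958 CPM in control males and 21.4, 69.0 and 104 CPM in ovariectomized females, a log2 fold change of -3.44 ± 0.32 (adjusted p = 6.38e-12). Several membrane transporters were in this group. Slco2b1, which carries organic anions including sulfated steroids, fell from a mean of 51.1 to 5.09 CPM (log2 -3.25). Abca8a, a lipid transporter, fell from 62.5 to 7.52 CPM (log2 -3.10). Slc5a3, which imports myo-inositol, fell from 462 to 46.1 CPM (log2 -3.37), with control replicate 4 highest at 1363 CPM. Slc16a9, a monocarboxylate carrier, fell from 21.0 to 1.28 CPM. The tight junction gene Cldn10 fell from 48.8 to 5.03 CPM, the homeobox gene Meox1 from 37.2 to 4.00 CPM, the basement membrane gene Frem1 from 29.5 to 2.16 CPM and dermokine, Dmkn, from 68.3 to 6.94 CPM. Of these, Meox1 did not hold in 1 set. Prl2c5 and Prl2c2, which encode proliferins, fell by 5.27 and 3.24 on the log2 scale, but they are near-identical copies among which reads may be split, and Prl2c2 lost its call without the Tcf21 libraries.

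**Figure D3:**
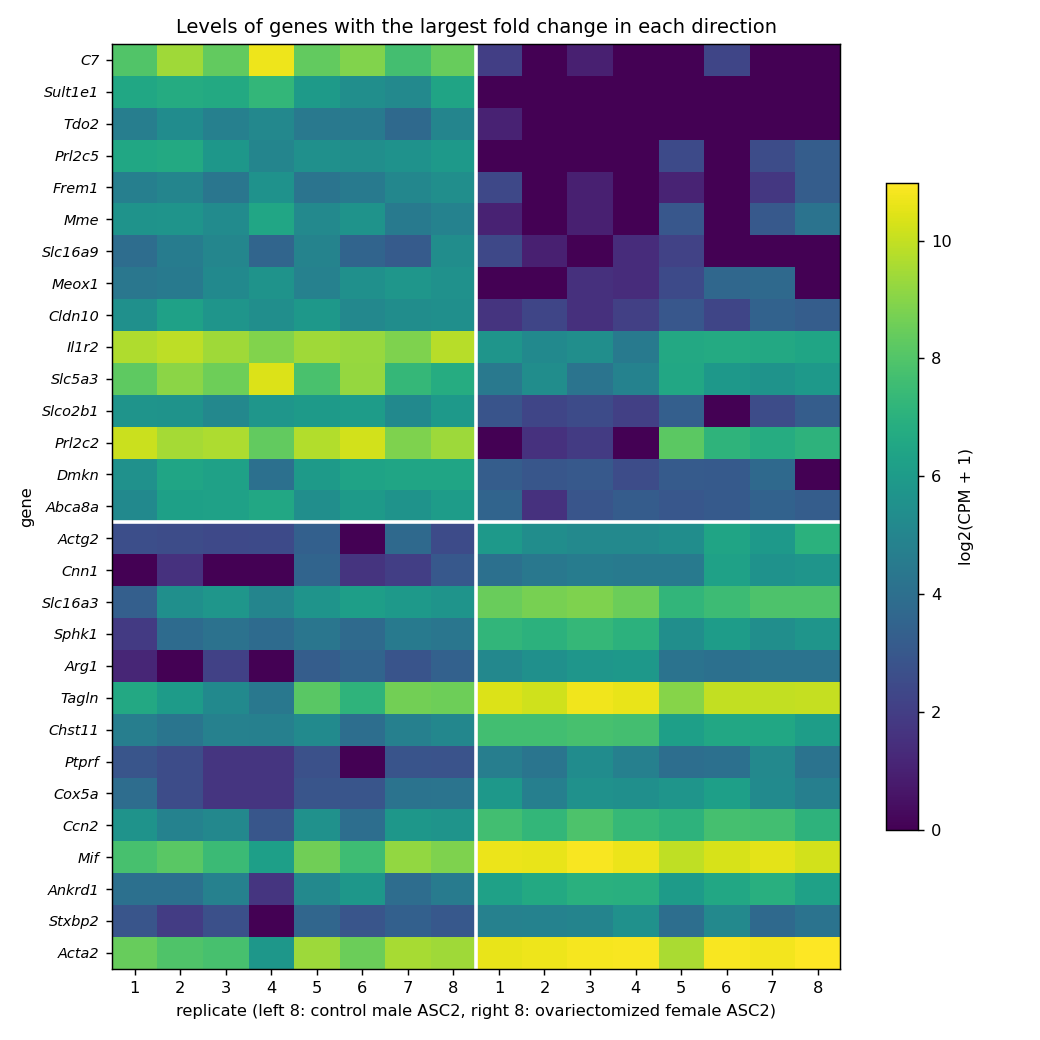
The colour gives log2(CPM + 1) of the 15 genes with the largest fall and 14 of the 15 with the largest rise in each of the 16 libraries, controls on the left of the white line. C7, Sult1e1 and Tdo2 go from filled rows on the left to rows at or near 0 on the right, while Mif and Acta2 go the other way in all 8 ovariectomized libraries.

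Sexually dimorphic genes, which the study found both in single cells of perigonadal fat and in other bulk libraries of iWAT, were followed through this comparison. Perigonadal fat is a visceral depot, so this list does not rest on iWAT alone. Of the 22 tested autosomal genes enriched in males, 11 fell and 2 rose, with a median log2 fold change of -0.92, and 5 of the 13 held (C7, Sult1e1, Agt, Prelp and Arl4a). Of the 11 enriched in females, 5 rose and none fell, with a median of 1.28, but no member of that list was called without the Tcf21 libraries, where the median was 0.37. The male genes that rose were Svep1, an extracellular adhesion protein, and Avpr1a, a vasopressin receptor. Svep1 had 226 to 245 CPM in ovariectomized replicates 1 to 4 and 11.5 to 34.3 CPM in replicates 5 to 8, against 33.9 to 58.2 CPM in the controls, and its fold change without replicates 1 to 4 was -1.18 on the log2 scale. Among the female genes Il4ra, the interleukin 4 receptor, rose from 230 to 686 CPM, Pgr, the progesterone receptor, from 5.45 to 27.4 CPM, and Akr1c14, a hydroxysteroid dehydrogenase, from 20.1 to 69.1 CPM. A further list from the bulk measurements of the study had 17 male genes, of which 10 fell and 1 rose (median -1.07, 7 held), and 7 female genes, of which 3 rose (median 0.82, none held). Ecm1, a secreted matrix glycoprotein of that list, fell from 1229 to 279 CPM, the nucleoside transporter Slc29a1 from 452 to 134 CPM and the amylase gene Amy1 from 79.5 to 11.7 CPM.

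For a test on the libraries themselves, 9 genes were fixed. The study had named all of them from comparisons with the same control male libraries. Its main text named 8 for castration. A legend of its castration data also names a gene printed as Prepl, read here as Prelp. That gene differed between the control sexes but not between castrated males and control females. The 9 genes are therefore not independent evidence of a direction. For Ace, Agt, Arhgap24 and Fkbp5 the study found no significant difference between the sexes in its control samples. In an exact two-sided permutation test of mean log2(CPM + 1), C7, Sult1e1, Agt, Arl4a, Angpt1 and Prelp reached p = 0.000155, the smallest that 8 against 8 libraries can give, or 0.000233 adjusted over the 9 genes. The differences were -8.07 for C7, -6.28 for Sult1e1, -2.96 for Angpt1, -2.53 for Arl4a, -2.49 for Agt and -2.41 for Prelp. Ace differed by -1.95 (exact permutation p = 0.000311), Arhgap24 by -0.88 (p = 0.000777) and Fkbp5 by -0.80 (p = 0.0118). Fkbp5, a chaperone of steroid receptors and a known androgen and glucocorticoid target, differed by -0.43 without the Tcf21 libraries (exact permutation p = 0.21, adjusted over the 9 genes). Its libraries overlapped, with 38.0 to 109 CPM in control males and 20.4 to 61.5 CPM in ovariectomized females.

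The renin-angiotensin system forms angiotensin peptides from angiotensinogen and degrades them by peptidases at the cell surface. Of 9 tested autosomal genes, 6 fell and none rose, with a median log2 fold change of -0.93, and 3 held. Members that are not autosomal, receptor genes among them, were left out. Agt, angiotensinogen, had 3.53, 8.76 and 19.8 CPM in control males and 0, 0.987 and 2.88 CPM in ovariectomized females (log2 -2.87 ± 0.68, adjusted p = 0.00172), so the groups did not overlap. Mme, the peptidase neprilysin, fell from 45.3 to 4.17 CPM (log2 -4.02, adjusted p = 1.1e-05). Ace, which converts angiotensin, had 84.4 to 301 CPM against 8.57 to 88.1 CPM (adjusted p = 0.00227), but lost its call in some of the smaller sets. The aminopeptidase genes Anpep, Enpep and Lnpep fell by 1.08, 0.93 and 0.92 on the log2 scale. The autosomal receptor gene Agtr1a had 28.6 and 15.8 CPM and did not pass (adjusted p = 0.0738).

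Genes of the matrix and of complement were among those that fell. Of 9 small leucine-rich proteoglycans, which bind collagen fibrils, 6 fell and none rose (median -1.64), and 3 held. Decorin, Dcn, had 3784, 6714 and 8231 CPM in control males and 1584, 2032 and 2752 CPM in ovariectomized females, with no overlap (log2 -1.65 ± 0.22, adjusted p = 2.37e-07). Prelp fell from 351 to 66.1 CPM and asporin, Aspn, from 117 to 32 CPM, while lumican, Lum, had 563 and 448 CPM and did not pass. Among 17 collagen genes 3 rose and 3 fell (median -0.11). Of 19 complement genes 9 fell and 1 rose (median -0.82), and 4 held. Beside C7, the component C4b fell from 345 to 83.5 CPM (log2 -2.07), factor B, Cfb, from 263 to 70.9 CPM (log2 -1.80) and Serping1, the inhibitor of the first complement protease, from 2690 to 1021 CPM (log2 -1.39). C3 fell from 1686 to 545 CPM (adjusted p = 0.013) but passed in only 1 of the 5 sets. Clu, clusterin, was the gene of this list that rose, from 25.5 to 230 CPM (log2 2.98).

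Genes that mark ASC2 and genes of adipogenesis were followed next. Of 7 ASC2 markers 4 fell and none rose (median -0.80). Dpp4, whose protein was the sorting marker, had 121 to 343 CPM in control males and 51.4 to 146 CPM in ovariectomized females (log2 -1.35, adjusted p = 0.00328), and Pi16 fell from 2970 to 1286 CPM. Anxa3, an annexin, was the marker that held, with 1082 and 660 CPM (log2 -0.71). Of 20 adipogenesis genes 6 fell and 2 rose, with a median of 0.07. Pparg, the master regulator of adipocyte differentiation, had 15.7, 49.0 and 79.2 CPM in control males and 0, 5.61 and 12.6 CPM in ovariectomized females, with no overlap (log2 -2.92 ± 0.48, adjusted p = 1.04e-05). The early factors Ebf2 and Ebf1 fell by 1.57 and 1.16 on the log2 scale, and all 3 transcription factors held. Fabp4 and Cebpa did not pass (adjusted p = 0.311 and 0.391), while the lipase gene Pnpla2 rose from 17.0 to 43.2 CPM. Adipocyte markers summed to 1.19 to 24.7 CPM in control males and 0 to 6.29 CPM in ovariectomized females, with Plin1 and Retn at 0 in the latter.

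Immediate early genes, which respond within minutes to growth factors and to cell handling, showed 9 of 20 lower and none higher (median -0.98), and 4 held. Nr4a1, an orphan nuclear receptor, fell from 275 to 49.1 CPM, Egr2 from 221 to 52.4 CPM, Btg2 from 171 to 32.3 CPM and Fosb from 110 to 18.3 CPM. Jun and Junb did not pass (adjusted p = 0.486 and 0.939). Of 24 interferon and antigen processing genes 10 fell and none rose (median -0.62), and 2 held. Irf7, a transcription factor of the interferon response, was among these, with a mean of 409 CPM in control males and 155 CPM in ovariectomized females. The receptor gene Ifngr1 also fell and held, from 202 to 81.7 CPM. Of 15 chemokine genes 5 fell and 4 rose, and Cxcl13, which attracts B cells, held with 56.5 against 8.73 CPM.

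Glycolysis genes were the list with the largest share that rose. Of 15 tested autosomal members 13 rose and none fell, with a median log2 fold change of 0.99 against 0.01 over all genes, and 8 held. Without the Tcf21 libraries the same list had 8 called higher and a median of 0.84, where the median of all genes was -0.10. Slc16a3, which exports lactate, had 9.09, 50.9 and 70.0 CPM in control males and 151, 298 and 464 CPM in ovariectomized females (log2 2.73 ± 0.39, adjusted p = 6.37e-07). Its lowest ovariectomized library was above its highest control library. Ldha, the lactate dehydrogenase subunit, had 805, 1535 and 1949 CPM against 2380, 3011 and 3692 CPM, again without overlap (log2 0.99, adjusted p = 5.69e-07). Pgam1 rose from 271 to 751 CPM, Tpi1 from 427 to 1128 CPM, Pkm from 2924 to 5672 CPM, Eno1 from 2296 to 4390 CPM and the glucose transporter Slc2a1 from 68.9 to 178 CPM. Gapdh rose from 1394 to 3703 CPM, with control replicate 4 at 129 CPM, and its log2 fold change was 1.23 to 1.54 with any single library left out. The phosphofructokinase genes Pfkm and Pfkp did not pass (adjusted p = 0.357 and 0.215), while Pfkl rose. Gapdh, Pkm, Eno1, Pgam1 and Ldha have processed pseudogenes that can share reads, so their levels are uncertain. Of the 15 upstream windows 10 held the hypoxia core, and the median GC content was 59.2% against 52.4% over all windows.

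**Figure D4:**
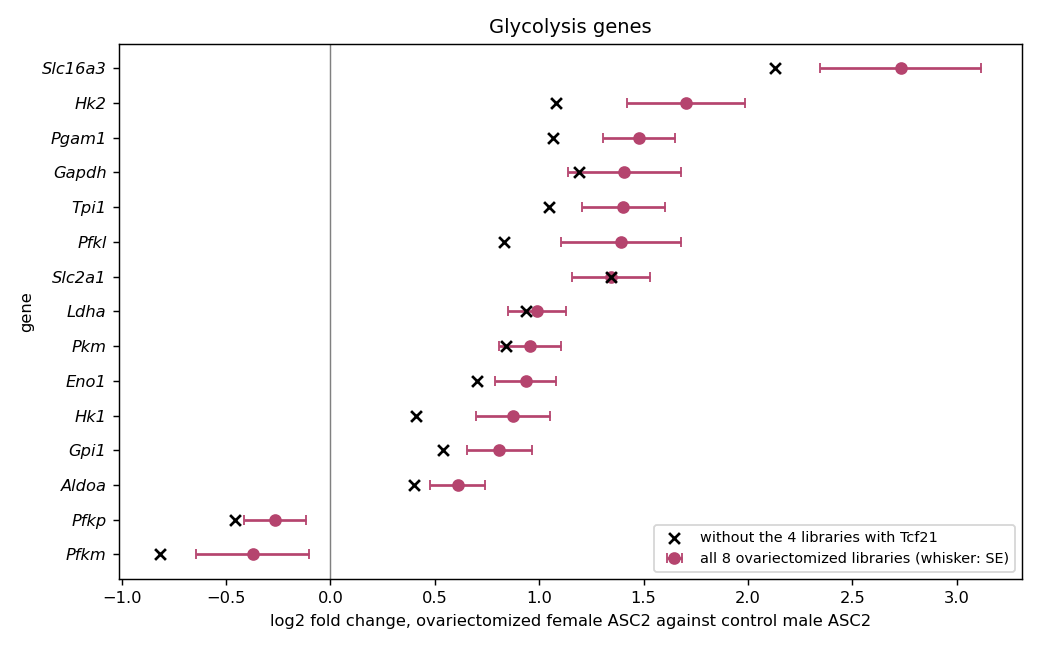
Points give the log2 fold change of ovariectomized female against control male ASC2 for the 15 glycolysis genes with the SE as whisker, and crosses the value without the 4 libraries with Tcf21. The 13 genes that passed the test lie to the right of 0, from Aldoa at 0.61 to Slc16a3 at 2.73, while Pfkm and Pfkp lie left of 0 and did not pass.

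The 15 genes with the largest rise included Slc16a3 and several genes of the contractile cytoskeleton, and 12 of them held. Acta2, smooth muscle actin, had 55.8, 354 and 747 CPM in control males and 776, 1815 and 2021 CPM in ovariectomized females (log2 2.00 ± 0.35, adjusted p = 2.26e-05). Tagln, transgelin, rose from 178 to 1170 CPM, Actg2, the enteric actin, from 5.67 to 60.3 CPM and Cnn1, calponin, from 3.11 to 34.7 CPM, and all 4 held. Acta2 and Tagln were also on the list of mural cell markers, of which they were the 2 of 7 that passed. The summed mural markers were 105 to 1169 CPM in control males and 1335 to 3576 CPM in ovariectomized females, a sum made mostly of these 2 genes. The pericyte marker Rgs5 had 9.59 and 3.65 CPM, Myh11 4.05 and 9.59 CPM, and neither passed (adjusted p = 0.168 and 0.0869), while Higd1b was at 0 in all control libraries.

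Ccn2, connective tissue growth factor, rose from 35.6 to 179 CPM, and Ankrd1 from 23.5 to 98.0 CPM. Both are known targets of the YAP coactivator. Mif, a secreted cytokine, rose from 299 to 1455 CPM (log2 2.28, adjusted p = 5.16e-09), with many pseudogenes that make its level uncertain. Chst11, a chondroitin sulfotransferase, rose from 26.1 to 145 CPM, Cox5a, a subunit of cytochrome c oxidase, from 8.92 to 45.0 CPM, and the phosphatase Ptprf from 4.2 to 24.0 CPM. Sphk1, a sphingosine kinase, Arg1, arginase, and Stxbp2 rose by 2.73, 2.73 and 2.02 on the log2 scale and lost their calls without the Tcf21 libraries.

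**Figure D5:**
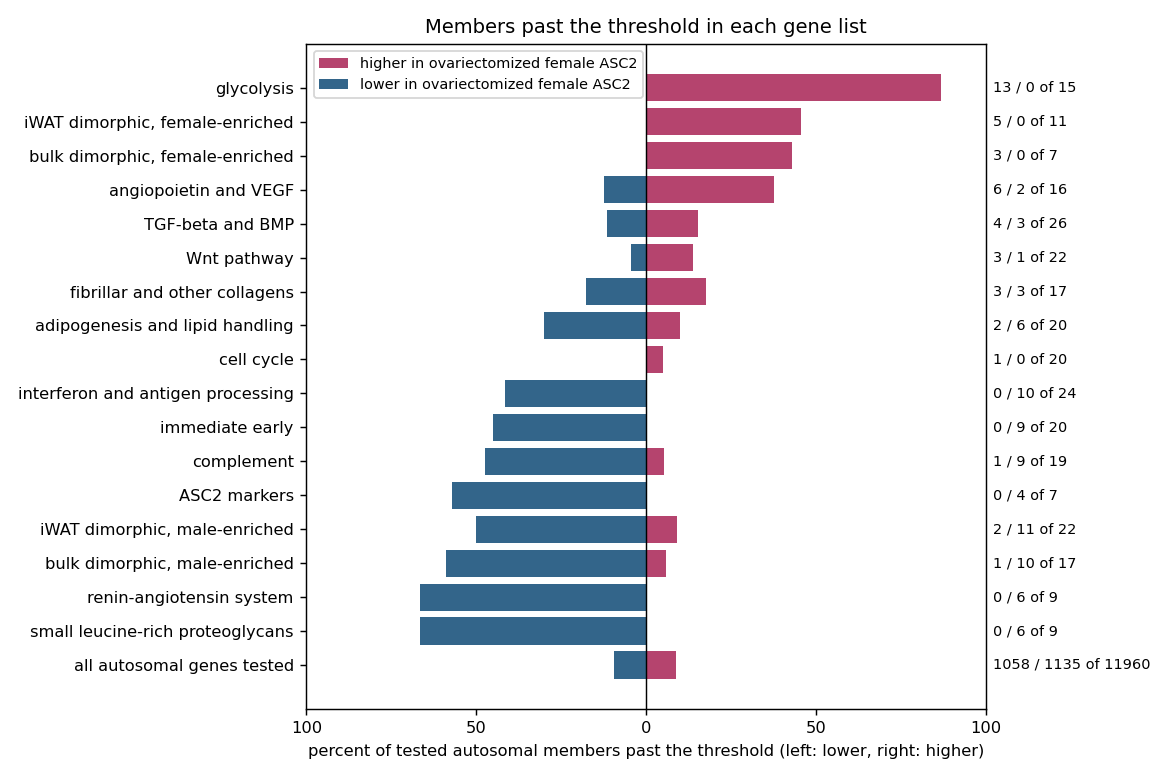
Bars give the percent of tested autosomal members of each gene list that were higher (pink, right) or lower (blue, left) in ovariectomized female than in control male ASC2, with the counts at the right. Glycolysis reaches 13 of 15 on the higher side, the proteoglycans 6 of 9 on the lower side, and the bottom bar gives all 11960 autosomal genes for reference.

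No gene of the hormone receptor, androgen response or estrogen response lists held. The estrogen receptor Esr1, with means of 30.2 and 27.0 CPM, did not pass (adjusted p = 0.88), nor did the glucocorticoid receptor Nr3c1 with 62.5 and 39.5 CPM (adjusted p = 0.125). Of 7 autosomal receptor genes 3 rose, Pgr and the prolactin and growth hormone receptors Prlr and Ghr. None rose without the Tcf21 libraries, where Pgr and Ghr had log2 fold changes of -0.16 and -0.34 and Nr3c1 fell by 1.16. Of 13 androgen response genes from other tissues 1 rose and 1 fell (median 0.00). Of 13 estrogen response genes 5 rose and 1 fell (median -0.06), where 8.85% of all genes tested rose and 9.49% fell. Among 15 glucocorticoid response genes 3 rose and 3 fell, and Glul, glutamine synthetase, held with a fall from 186 to 87.1 CPM. Of 19 steroid metabolism genes 2 rose and 3 fell, and Hsd17b7 held beside Sult1e1, from 37.7 to 11.1 CPM. Cyp7b1, which hydroxylates oxysterols, had 150 to 176 CPM in ovariectomized replicates 1 to 4. Replicates 5 to 8 had 0 to 7.69 CPM, and the log2 fold change of 5.18 was -0.77 without replicates 1 to 4. Control female ASC2 libraries had 0 to 166 CPM of Cyp7b1.

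Of 16 angiopoietin and VEGF genes 6 rose and 2 fell (median 0.64). Angpt1, the ligand that stabilises vessels, had 6.36 to 37.9 CPM in control males and 0 to 4.58 CPM in ovariectomized females, and its receptor gene Tek fell from 130 to 42.6 CPM and held. Vegfa rose from 20.4 to 58.1 CPM. Angpt4 rose from 11.2 to 120 CPM and had a log2 fold change of -0.04 without the Tcf21 libraries. Without those libraries 1 gene of the list rose and 1 fell. In the other signalling lists 3 of 22 Wnt genes rose and 1 fell, and 4 of 26 TGF-beta and BMP genes rose and 3 fell. Of 12 IGF genes 3 rose and 3 fell. Over all genes tested, 8.85% rose and 9.49% fell. Of 20 cell cycle genes 1 rose, and of 21 cholesterol synthesis genes 1 rose and 2 fell. Macrophage markers summed to 97.5 to 280 CPM in control males and 99.0 to 213 CPM in ovariectomized females, with none of 6 past the threshold. Endothelial markers summed to 14.8 to 45.2 CPM and 25.7 to 77.7 CPM, and 3 of 5 rose, Cdh5, Cldn5 and Kdr, the last of which is also a VEGF receptor of the list above. Mesothelial markers summed to 0 to 26.7 CPM and 37.9 to 81.6 CPM without overlap. Of these markers 3 of 5 rose, Upk3b, Lrrn4 and Wt1, the last at 0 in all control male libraries. The median mesothelial sum was 18.4 CPM in control male and 59.3 CPM in ovariectomized female ASC2. It was 35.5 CPM in castrated male and 76.5 CPM in control female ASC2, with highest sums of 71.4 and 214 CPM. The higher sum was therefore not particular to the ovariectomized group. Without the Tcf21 libraries none of the 5 endothelial markers passed, and the keratin gene Krt19 was the mesothelial marker that rose. In that set Upk3b and Lrrn4 turned below 0, and Wt1 had no read in either group. Epithelial markers summed to 0 to 129 and 23.05 to 1148 CPM, with 4 of 5 higher, and Krt5 at 0 in all control libraries. Without the Krt18 libraries none of the 5 passed and their median log2 fold change was -0.80, with Krt8, Krt14 and Krt18 below 0. Those libraries were picked for high Krt18, so this outcome was set in large part by the choice. The part of these cell types in the other results was not tested.

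A direct test against castrated male ASC2, the other group without gonads, called 300 genes higher (2.51%) and 169 lower (1.41%) in ovariectomized females, or 29 and 15 without the Tcf21 libraries. This test shares the ovariectomized libraries with the main comparison. Of the 15 genes with the largest fall 4 also differed there, and of the 15 with the largest rise 13 did. Acta2 had a mean of 499 CPM in castrated males and was higher in ovariectomized females (log2 1.74, adjusted p = 0.000943). Il1r2 with 83.6 CPM, Slco2b1 with 6.06 CPM and Tdo2 with 0.137 CPM did not pass (adjusted p = 0.658, 0.888 and 0.997). Agt was higher in castrated males, with 22.0 CPM (log2 -3.95, adjusted p = 9.44e-05), and Pparg likewise with 39.9 CPM (log2 -2.76, adjusted p = 0.000269). The Agt means of control male and control female ASC2 were 10.5 and 12.1 CPM, which lay below the castrated mean. In castrated against control male ASC2, Agt had a log2 fold change of 1.09 and did not pass (adjusted p = 0.13). The genes with the largest rise over castrated males lay mainly in some of the ovariectomized libraries. The keratins Krt17, Krt5, Krt7, Krt8 and Krt14 and the claudin Cldn4 had log2 differences of 4.93 to 7.99. Ngfr, the low-affinity nerve growth factor receptor, had 440 to 612 CPM in ovariectomized replicates 1 to 4. Replicates 5 to 8 had 4.95 to 27.5 CPM of Ngfr, and control female ASC2 had 3.67 to 393 CPM. Among the largest falls were Nqo1, a quinone reductase, with means of 24.0 against 180 CPM, and the glutathione transferase Gsta4 with 10.6 against 79.2 CPM. Both were highest in castrated replicate 3, at 844 and 345 CPM, and without it the castrated means were 84.8 and 41.2 CPM and the log2 differences -1.86 and -2.13 (adjusted p = 0.0204 and 0.0112). The elastase gene Mmp12 had 90.6 against 589 CPM, with castrated libraries between 139 and 1688 CPM. Against control female ASC2, 79 genes were higher (0.661%) and 167 lower (1.4%), but 6 of those 8 control female libraries held 23 to 47 Y-linked reads, against their label.

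The difference between ovariectomized females and control males was also tested between ASC2 and ASC1, where 3 ovariectomized and 7 control ASC1 libraries remained and 2839 genes (23.7%) had a higher and 1651 (13.8%) a lower fold change in ASC2. Of the 7 control ASC1 libraries, replicates 4 to 7 held 29 to 82 reads of Xist and 5 to 7 Y-linked reads, against their label, and without the mixed control libraries of both populations 2533 genes were higher and 1429 lower. The ovariectomized ASC1 libraries had 188599 to 1114334 counts, 9122 to 11634 detected genes and 1.55% to 3.42% mitochondrial counts, against 0.644% to 0.821% in ovariectomized ASC2, and their part in these counts was not tested. C7 had 122 to 337 CPM in control male ASC1 and 50.3 to 285 CPM in ovariectomized female ASC1, which overlapped, and its fold change was lower in ASC2 by a log2 difference of -8.41 (adjusted p = 1.51e-11), or -8.79 without the mixed libraries (adjusted p = 2.82e-09). Sult1e1 had 22.7 to 133 CPM in control male ASC1 and no read in the 3 ovariectomized libraries, so ovariectomized libraries of either population gave no read. Prelp differed between the populations by -3.76 (adjusted p = 2.06e-06), or -3.36 without the mixed libraries (adjusted p = 0.000392), with 66.3 to 247 CPM in control male and 273 to 533 CPM in ovariectomized female ASC1.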

How the data were processed

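Bulk Smart-seq3 libraries numbered 58, in 8 groups by sex, treatment and sorted population. The authors ran Salmon 1.9.0 against Gencode transcripts of GRCm39, kept libraries in which at least 8500 genes were found, and deposited the estimated counts as they were, not normalized. Per the labels' processing notes, FastQC 0.11.9, STAR 2.7.10a and MultiQC 1.12 were also used. All columns belonged to a library of the experiment. The table held 56953 genes, and 15.0% of the counts above 0 were not whole, so all counts were rounded.

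Counts were tested in R 4.3.3 with edgeR 4.0.16 (TMM factors and quasi-likelihood F-tests). A gene was kept if over 3 libraries had 5 or more reads of it, which left 12464, with 1 coefficient for each of the 8 groups, so that all 58 libraries shared 1 estimate of the spread. The threshold was an adjusted p below 0.05 (Benjamini-Hochberg over all genes tested), and the 11960 autosomal genes are reported. The common biological coefficient of variation was 35.6%. CPM were computed on TMM-scaled sizes, and 1 CPM was added before taking log2 for the permutation test (SciPy 1.17.1). A fold against a group without reads uses a floor of 3 reads over the group. Floors and ratio intervals cover counting error only. Chromosomes were taken by gene identifier from an older Gencode release on GRCm38. Total counts per library were 106566 to 1421547, and replicates of both groups differed by more than sampling noise (lowest chi-square per gene 1.53). On simulated data for this comparison with 12464 genes, 100% and 96% of 4-fold rises and falls were recovered. For 2-fold rises and falls these were 34% and 32%, with 4 false calls. The changed genes had at least 5 expected reads in a control male library of median size. All simulated libraries shared the same spread and held no subsets like those with Tcf21, Krt18 or Xist, so these rates do not cover such subsets.

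Named were the markers C7 and Sult1e1, members of the gene lists past the threshold and a few others of each list, and the 15 genes with the largest fold change in each direction with at least 20 CPM and no overlap. For the tests against castrated ASC2 and between populations, up to 8 genes in each direction were eligible. The members and lists were chosen with earlier results of these data known. Alternatives were other size factors, filters, sample sets and tools, a plate-row block and each library left out in turn. Control female ASC2 and ASC1 libraries were used only where named. A few further features named for their levels (Ngfr, Svep1 and Cyp7b1 by replicate) were singled out after their values were seen. A few genes that met these rules are not reported here.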

Additional observations from a re-analysis of the deposited data

Results flagged for a closer look

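Of 74 groups of 8 libraries examined, 10 values lay far from the other libraries of their group by Dixon's criterion, which chance alone meets in about 1 of 20 groups. Control male replicate 4, which also had the lowest share of ribosomal protein counts, was the highest library for C7 (1664 CPM), Angpt1 (37.9 CPM), Mme (89.2 CPM) and Slc5a3 (1363 CPM). Ovariectomized female replicate 5 was highest for Angpt1 (4.58 CPM) and Prelp (144 CPM) and lowest for Acta2 (776 CPM). In the same group, replicate 1 was highest for Tdo2 (1.05 CPM), from the only read of the group. Replicate 8, the shallowest library, was highest for Mme (17.1 CPM), and replicate 2 was lowest for Abca8a (1.92 CPM). The whole ovariectomized group held 5 reads of Angpt1 and 13 of Mme.

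The fold change of ovariectomized female against control male cells was also unequal in ASC2 and ASC1 for some genes by the interaction test of edgeR, with 3 ovariectomized ASC1 libraries. The log2 difference was -8.41 for C7, -3.09 for Arl4a, -3.11 for Angpt1 and -3.76 for Prelp, with adjusted p = 1.51e-11, 2.32e-05, 0.0317 and 2.06e-06. Without the control male libraries of both populations that held Xist and Y-linked reads, Angpt1 no longer passed (-3.28, adjusted p = 0.0588), and C7, Arl4a and Prelp did. It was 12.35 for Tcf21, 12.15 for Asic3 and 11.77 for Hp, which had 0 to 50.9, 0 to 109 and 0 to 137 CPM among the ovariectomized ASC2 libraries. For the ribosomal protein pseudogenes Rpl10-ps3, Rps6-ps4 and Rpl10a-ps1 it was -19.43, -19.38 and -13.95. These share reads with near-identical copies, had no read in any ovariectomized ASC2 library and are uncertain.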

How the results depend on the processing

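The counts of autosomal genes higher and lower in ovariectomized female than in control male ASC2, 1058 and 1135, kept within 1.5 times under other size factors, filters, sample sets, robust estimation and DESeq2, and were 870 to 1213 and 919 to 1237 with any single library left out. They moved to 397 and 544 without the Tcf21 libraries and to 611 higher without these and the mixed controls. Against castrated ASC2 the genes higher were 191 with only the 32 ASC2 libraries, 29 without the Tcf21 and 588 without the Krt18 libraries, and the genes lower 15 and 353 in the latter sets. With any castrated library left out they were 233 to 314 and 138 to 170. Against control female ASC2 the genes higher were 124 without a count filter, 39 with only ASC2 libraries, 137 with DESeq2, 39 without the Tcf21 and 220 without the Krt18 libraries, and 47 were lower without the Tcf21 libraries. For the difference between ASC2 and ASC1, leaving out an ovariectomized ASC1 library gave 1881 to 2703 genes higher and 1002 to 1663 lower, the lowest of both without replicate 1. The difference for Fkbp5 in the exact permutation test was -0.43 without the Tcf21 libraries (p = 0.21, adjusted over 9 genes).

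Of 186 genes listed with a fold change, 148 passed under every one of 9 other scalings, filters, sample sets and tools that tested them. Without the Tcf21 libraries the log2 fold change turned to -1.18 for Svep1, -0.16 for Pgr, -0.34 for Ghr, -0.77 for Cyp7b1, -0.032 for Slc38a2, -0.044 for Angpt4, -1.31 for Hoxd10, -0.87 for Upk3b and -0.87 for Lrrn4. Without these and the mixed controls it turned to -1.10 for Svep1, -0.21 for Pgr, -0.72 for Ghr, -0.26 for Cyp7b1, -0.064 for Slc38a2, -0.070 for Kdr, 0.064 for Cx3cl1 and -1.42 for Lrrn4. Without the Krt18 libraries, which were picked for high levels of that keratin, it turned to -1.11 for Krt8, -0.59 for Krt18 and -1.89 for Krt14. The cause was not tested. Replicate numbers were given in accession order and pair no libraries. ASC2 and ASC1 libraries of 1 group that share a plate row may come from 1 mouse, which the labels do not state. A limma voom fit with this row as replicate block gave 1303 genes higher and 1098 lower, at a correlation of 0.05 between libraries of a row, and 2658 and 1625 for the difference between ASC2 and ASC1. Over the 186 genes and each library left out in turn, 144 fold changes no longer passed, 2832 kept their call and none turned. Most 2-fold changes were missed on simulated data, so a gene that did not pass may still differ.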
